A study of Mus musculus with 8 samples.

Results

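The 10 genes described here encode proteins of the smooth muscle contractile apparatus: *Acta2*, *Actg2*, *Myh11*, *Tagln*, *Cnn1*, *Des*, *Myl9*, *Lmod1*, *Smtn* and *Tpm2*. They were chosen by name out of 24651 genes, by a rule that uses no measured value, but with earlier results of these data known. Counts of all transcripts of each gene symbol were summed in every library. Each of the 8 RNA-seq libraries came from a pair of testes of a 12-day-old male on a mixed strain background, and 4 were wild type and 4 *Morc2b*-/-. In the *Morc2b*-/- allele exon 2, which holds all of the coding region, is deleted in the germ line and therefore in every cell type. The sample labels call the controls wild type, whereas the series' design text calls them *Morc2b*+/-. Each library is the total RNA of whole testes, purified for poly(A) RNA, so that fewer muscle cells and less RNA per muscle cell cannot be told apart.

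In smooth muscle, myosin filaments pull on actin filaments once a kinase has phosphorylated the regulatory light chain of myosin, and tropomyosin, calponin and related proteins regulate the thin filament. In the testis these proteins mark the peritubular myoid cells, the flat contractile cells that wrap each seminiferous tubule and move fluid and sperm along it. Smooth muscle of blood vessels expresses the same genes, as does the muscular wall of the epididymal duct, which lies against the testis. None of the 10 genes separates these cell types.

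Counts on transcripts ranged from 27144796 to 36941755 per library. The targeted gene does not separate the genotypes completely. *Morc2b* (chromosome 17, 33272533 to 33276628, NCBIM37) had 24 to 1272 counts in wild type and 2 to 115 in *Morc2b*-/- libraries, and wild type replicate 3 was below *Morc2b*-/- replicate 3. Only the order of these 2 libraries goes against the labels. Wild type replicate 3 (24 counts) was above *Morc2b*-/- replicates 1, 2 and 4 (10, 10 and 2 counts). *Morc2b*-/- replicate 3 (115 counts) was below wild type replicates 1, 2 and 4 (428, 443 and 1272 counts). All libraries are named here as labelled. Of 7 tested Sertoli cell genes, 6 were at 49.2 CPM or more in every library, where CPM are depth-scaled counts after TMM normalization, and *Kitl*, listed under 2 transcripts, was at 0.595 to 1.32 CPM. *Cldn11*, a tight junction gene, was at 638 CPM in wild type replicate 1 and at 595 to 817 CPM in the 7 other libraries. *Gata4* (listed under 2 transcripts) had 1 count and *Insl3* 5 counts in all libraries together.

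One library, wild type replicate 1, stood apart in the smooth muscle genes. Of the 10 genes, 8 had enough counts to be tested, and all 8 were highest in that library, whereas 15.5% of the 13507 genes tested were. Its excess was not uniform. *Actg2* was 5.36 times the median of the 7 other libraries, *Cnn1* 3.72 times and *Des* 2.65 times, but *Lmod1* only 1.36 times and *Myl9* 1.35 times. The median of the 8 genes was 2.12 times, against 0.998 for all genes tested. No difference between the genotypes was detected, and the direction of most of the fold changes depended on this library.

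**Figure D1:**
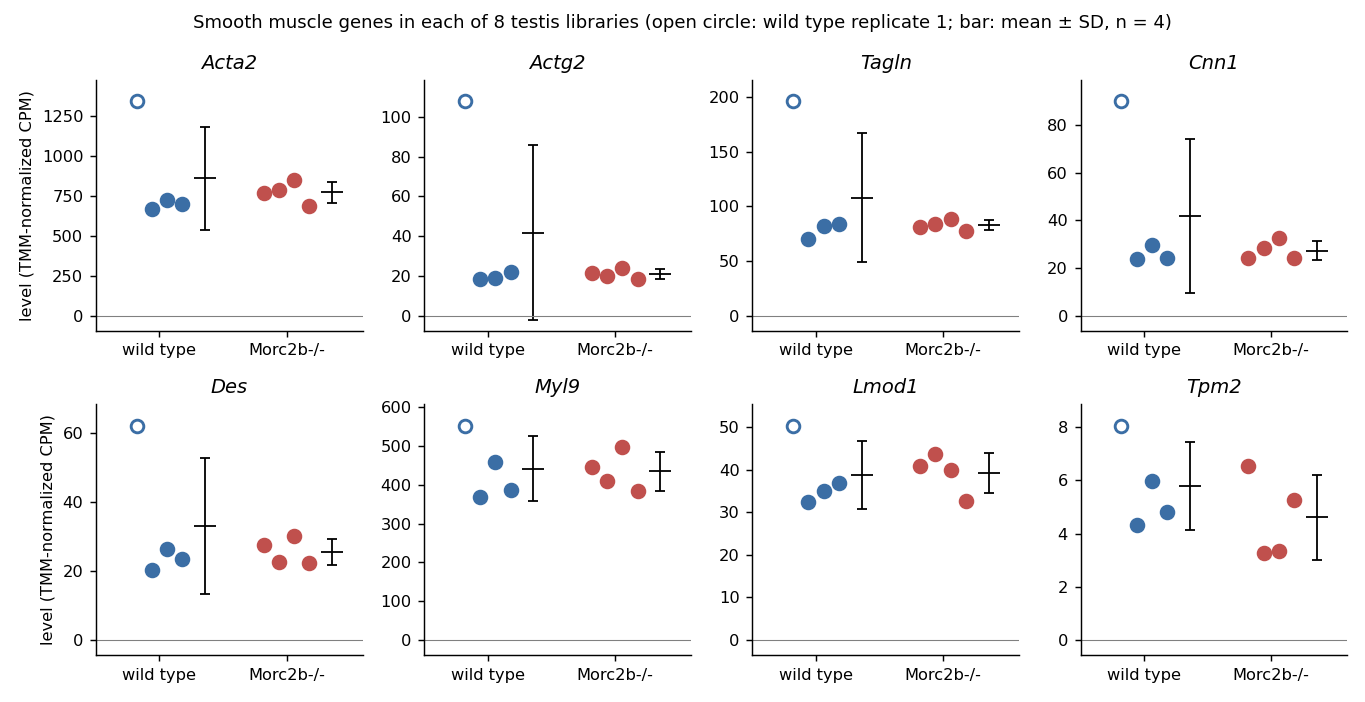
Level of each of the 8 tested smooth muscle genes in each library, in TMM-normalized CPM, with wild type libraries in blue and *Morc2b*-/- libraries in red. The open circle is wild type replicate 1, which is the highest library in every panel (107.9 CPM for *Actg2*, against 18.4 to 24.1 CPM elsewhere), and the bars give the mean ± SD of 4 libraries.

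The actins come first. *Acta2*, which encodes smooth muscle alpha-actin (chromosome 19, 34315580 to 34329826, NCBIM37), was at 1345, 670.4, 727 and 699 CPM in wild type replicates 1 to 4, and at 769, 786, 849 and 685 CPM in *Morc2b*-/- replicates 1 to 4. Wild type replicate 1 was 1.59 times the next highest library, and the remaining libraries of the genotypes overlapped. *Actg2*, which encodes the gamma-actin typical of visceral smooth muscle (chromosome 6, 83462899 to 83486259), was at 107.9, 18.4, 19.0 and 21.8 CPM in wild type and at 21.7, 20.1, 24.1 and 18.4 CPM in *Morc2b*-/- testes. Its 3957 counts in wild type replicate 1 give a 95% Poisson interval of 104.5 to 111.3 CPM, which covers counting error only, and the next highest library had 841 counts. Wild type replicate 1 thus held 64.6% of the *Actg2* CPM of its genotype.

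None of the 1707 windows of 75 bases in the longest coding transcript of *Acta2*, and none of the 1259 in that of *Actg2*, occurs in a coding transcript of another gene in GENCODE. The same held for the other 8 smooth muscle genes.

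Of the myosin subunits, *Myl9* encodes the regulatory light chain and *Myh11* the smooth muscle heavy chain. *Myl9* (chromosome 2, 156601156 to 156607394) was at 553, 369.7, 458 and 386 CPM in wild type replicates 1 to 4 and at 447.5, 409.8, 498 and 384 CPM in *Morc2b*-/- replicates 1 to 4. Wild type replicate 1 was only 1.11 times *Morc2b*-/- replicate 3, the next highest library. *Myh11* (chromosome 16, 14194620 to 14291501) had 0 to 4 counts per library and could not be measured. It is listed under 2 transcripts, and its counts are not read here as its expression.

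The promoters of the genes, from 250 bases before to 50 bases after the start site, were searched for the CArG box, whose 6 inner bases are A or T. RefSeq sequences of GRCm38.p6 had an entry for 7 of the 10 genes, and *Actg2*, *Tagln* and *Myh11* were not among them. A CArG box was found in 1 of the 7, *Myl9*, and in 1.63% of all 32851 promoters of this length. When 1 G or C was allowed among the inner bases, a pattern chosen after the first search, 2 of the 7 genes had a match, *Myl9* and *Acta2*, as did 9.98% of all promoters. The motif as searched reads the same on both strands, and the matches are given here because *Acta2* and *Myl9* are the most abundant genes of the group per kb. The box is in capitals, with 10 bases on either side.
Myl9, chr2:156775293-156775322, plus strand, box 161 bases before the start site: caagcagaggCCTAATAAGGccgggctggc
Myl9, chr2:156775355-156775384, plus strand, box 99 bases before the start site, 1 inner G: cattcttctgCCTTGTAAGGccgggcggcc
Acta2, chr19:34255438-34255467, minus strand, box 84 bases before the start site, 1 inner C: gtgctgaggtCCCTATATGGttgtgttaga
Acta2, chr19:34255388-34255417, minus strand, box 34 bases before the start site, 1 inner G: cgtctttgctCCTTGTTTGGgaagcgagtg
In *Des*, *Lmod1*, *Tpm2*, *Cnn1* and *Smtn* these letters were not in the window.

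Among the proteins that bind the thin filament, *Tagln* encodes transgelin, an actin-binding protein of smooth muscle. *Tagln* (chromosome 9, 45737711 to 45744141) was at 196.5, 69.9, 81.9 and 83.8 CPM in wild type and at 80.9, 84.1, 88.2 and 77.6 CPM in *Morc2b*-/- testes. *Cnn1*, which encodes calponin, an inhibitor of actin-activated myosin (chromosome 9, 21903725 to 21914074), was at 89.97, 23.6, 29.7 and 24.2 CPM in wild type and at 24.1, 28.4, 32.6 and 24.1 CPM in *Morc2b*-/- testes. In both genes 1 high library in wild type lay above 7 libraries that overlapped between the genotypes.

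*Tpm2*, which encodes beta-tropomyosin (chromosome 4, 43527583 to 43536637), was at 8.07, 4.33, 5.96 and 4.81 CPM in wild type and at 6.56, 3.27, 3.35 and 5.26 CPM in *Morc2b*-/- testes. With 117 to 296 counts per library it was the least deeply counted of the 8 genes, and it is listed under 3 transcripts. Its coefficient of variation over the 7 libraries besides wild type replicate 1 was 26.01%, the largest of the 8.

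*Lmod1* encodes leiomodin, which nucleates actin filaments. *Lmod1* (chromosome 1, 137221384 to 137264642) was at 50.3, 32.5, 34.9 and 36.9 CPM in wild type and at 40.8, 43.6, 39.8 and 32.6 CPM in *Morc2b*-/- testes, so that wild type replicate 1 was close to the upper *Morc2b*-/- libraries. *Des*, which encodes the intermediate filament protein desmin (chromosome 1, 75356904 to 75365154), was at 62.2, 20.1, 26.4 and 23.5 CPM in wild type and at 27.4, 22.6, 29.99 and 22.4 CPM in *Morc2b*-/- testes. Its highest library was again wild type replicate 1, at 2.07 times the next. *Smtn*, which encodes smoothelin (chromosome 11, 3417526 to 3440615), had 0 or 1 count in each library. It is listed under 5 transcripts and, like *Myh11*, could not be measured. Ambiguous reads are in no count, and their part in the low counts of both genes was not tested. Of the 6070 genes listed under more than 1 transcript, 51.7% had 30 or fewer counts in all libraries together, against 33.0% of the 18581 genes with 1 transcript.

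Levels of different genes were compared per kb of the longest GENCODE coding transcript, for the 7 genes with 1 listed transcript. As medians of the 7 libraries besides wild type replicate 1, *Acta2* was at 408 CPM per kb and *Myl9* at 363 CPM per kb. *Tagln* followed at 51.7, *Actg2* at 15.1, *Cnn1* at 10.2, *Lmod1* at 9.35 and *Des* at 7.75 CPM per kb. The ranges of *Acta2* and *Myl9* overlapped, as did those of *Cnn1* and *Lmod1* and those of *Lmod1* and *Des*, whereas *Tagln* was separate from its neighbours in that order. In wild type replicate 1, *Actg2* reached 80.9 CPM per kb, and *Des*, at 20.5, was above *Lmod1*, at 12.8.

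Apart from wild type replicate 1, the smooth muscle genes varied about as much as the tested genes as a whole. Over the 7 other libraries the coefficient of variation ranged from 7.21% for *Tagln* and 8.62% for *Acta2* to 13.9% for *Des*, with *Tpm2* above. The median of the 8 genes was 11.3%, and that of all genes tested was 12.9%. With all 8 libraries the median rose to 37.3% for the 8 genes and to 13.4% for all genes tested. Among the other libraries, *Morc2b*-/- replicate 3 was the highest in 6 of the 8 genes, against 17.9% of all genes tested. Wild type replicate 2 was the lowest of all libraries in 6 of the 8, against 12.0%. *Des* and *Myl9* were higher in each library with an odd replicate number than in each with an even number, as were 7.37% of all genes tested. The labels give these numbers no meaning. The summed level of 8 germ cell genes was 1497 to 1973 CPM in the odd-numbered and 2189 to 2628 CPM in the even-numbered libraries, and the part of germ cell content in the levels of *Des* and *Myl9* was not tested.

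The question of the design is whether loss of *Morc2b* changes expression. None of the 8 smooth muscle genes was called as different between the genotypes in edgeR's quasi-likelihood test across 13507 genes. Each had a Benjamini-Hochberg adjusted p of 0.9998, and the test called 0 genes (0% of those tested). The deleted gene itself was not called either. *Morc2b* had a log2 fold change of -4.09, with an unadjusted p of 0.0079 and an adjusted p of 0.9998 (edgeR). The lack of a call therefore does not show that a gene was unchanged. At an unadjusted p under 0.05 there were 0 of the 8 genes, against 249 genes or 1.84% of those tested. DESeq2 gave no p for *Actg2*. Of the 7 others, 0 passed that threshold with DESeq2, against 1.95% of the 13436 genes with a p, and 1 gene outside the group (0.00744%) was called after adjustment. With limma-voom there were 0 of 8, against 1.67%. The smallest unadjusted p among the 8 was 0.110 for *Actg2* (edgeR). Its mean was 41.7 ± 44.1 CPM (SD, n = 4) over wild type libraries and 21.1 ± 2.43 CPM (SD, n = 4) over *Morc2b*-/- libraries. The log2 fold change by edgeR was -0.99, with a standard error of 0.56 and a 95% interval of -2.25 to 0.27. By limma-voom it was -0.58, with a standard error of 0.54. For no gene were the libraries of the genotypes separate, while among all genes tested *Morc2b*-/- libraries were all above in 0.407% and all below in 0.881%.

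With all libraries, 7 of the 8 genes had a log2 fold change (*Morc2b*-/- over wild type) below 0, and 50.8% of all genes tested were above 0. *Cnn1* had -0.62 (standard error 0.41), *Tagln* -0.39 (standard error 0.30), *Des* -0.37 (standard error 0.33), *Tpm2* -0.33 (standard error 0.28), *Acta2* -0.16 (standard error 0.21) and *Myl9* -0.02 (standard error 0.13). *Lmod1* had 0.02 (standard error 0.15). Their median was -0.35, against 0.0022 for all genes tested. The median was -0.39 without the library labelled wild type replicate 3 and -0.31 without that labelled *Morc2b*-/- replicate 3. Between these 2 libraries the order of *Morc2b* goes against the labels. In either fit edgeR called 0 genes.

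Without wild type replicate 1, the median of the 8 log2 fold changes was 0.10 instead of -0.35, and 7 of the 8 were above 0, as were 52.9% of all genes tested. The wild type mean of *Actg2* was then 19.7 ± 1.82 CPM (SD, n = 3), beside 21.1 ± 2.43 CPM (SD, n = 4) for *Morc2b*-/-, and its log2 fold change was 0.10 (standard error 0.12, 95% interval -0.18 to 0.37). *Acta2* was at 699 ± 28.3 CPM (SD, n = 3) and 772 ± 67.3 CPM (SD, n = 4), and the log2 fold change was 0.14 (standard error 0.077, 95% interval -0.03 to 0.32). The intervals of the other genes also included 0, and the widest, that of *Tpm2*, was -0.75 to 0.50. Of the 8 genes, 0 had an unadjusted p under 0.05 in edgeR's test, against 2.62% of all genes tested. No gene of the 8 had separate groups, against 1.39% of all genes with *Morc2b*-/- above and 1.85% below. When *Morc2b*-/- replicate 4 was left out as well, *Acta2* and *Lmod1* passed that unadjusted threshold, 2 of the 8 against 3.28% of all genes. Their adjusted p in edgeR's quasi-likelihood test was 0.9885. The 95% intervals with 3 against 4 libraries give the differences compatible with the data.

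**Figure D2:**
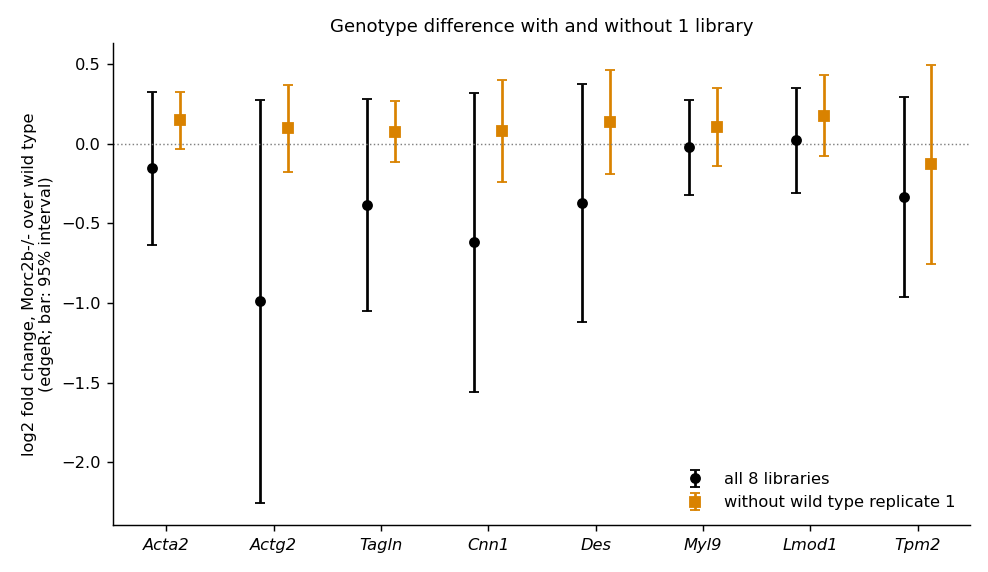
Log2 fold change of the 8 smooth muscle genes in *Morc2b*-/- over wild type testes from edgeR, with 95% intervals, for all 8 libraries (black circles) and without wild type replicate 1 (orange squares). *Actg2* lies at -0.99 with all libraries and at 0.10 without that library, and every interval includes 0.

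The excess of wild type replicate 1 extended to other genes of muscle contraction. Of 25 further contractile genes, 19 were tested, and 15 of these were highest in that library, against 15.5% of all genes tested. The 19 had a median of 1.41 times the median of the others. *Pgm5*, which encodes a phosphoglucomutase-like protein of muscle adhesion sites, was at 59.9 CPM there and at 4.75 to 6.89 CPM in the 7 other libraries. *Mylk*, the kinase that phosphorylates the myosin light chain, was at 715.5 CPM against 458.5 to 537.5 CPM, and *Csrp1*, which encodes a LIM protein of smooth muscle, was at 335 CPM against 207.5 to 271 CPM. *Vcl*, which encodes vinculin of cell adhesions in many cell types, was at 681 CPM, within the range of 665 to 831 CPM. Of the 19 genes, *Pgm5* alone had an unadjusted p under 0.05 between the genotypes (0.0483, log2 fold change -1.79, adjusted p = 0.9998, edgeR), 1 of 19 against 1.84% of all genes. Without wild type replicate 1 its log2 fold change was -0.064 (standard error 0.16).

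Counting genes at 1.5 or more times the median of the 7 other libraries, 6 of the 8 smooth muscle genes and 6 of the 19 other contractile genes were reached in wild type replicate 1, against 6.98% of all genes tested. At 2 or more times they were 4 of 8 and 4 of 19, against 3.2%.

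**Figure D3:**
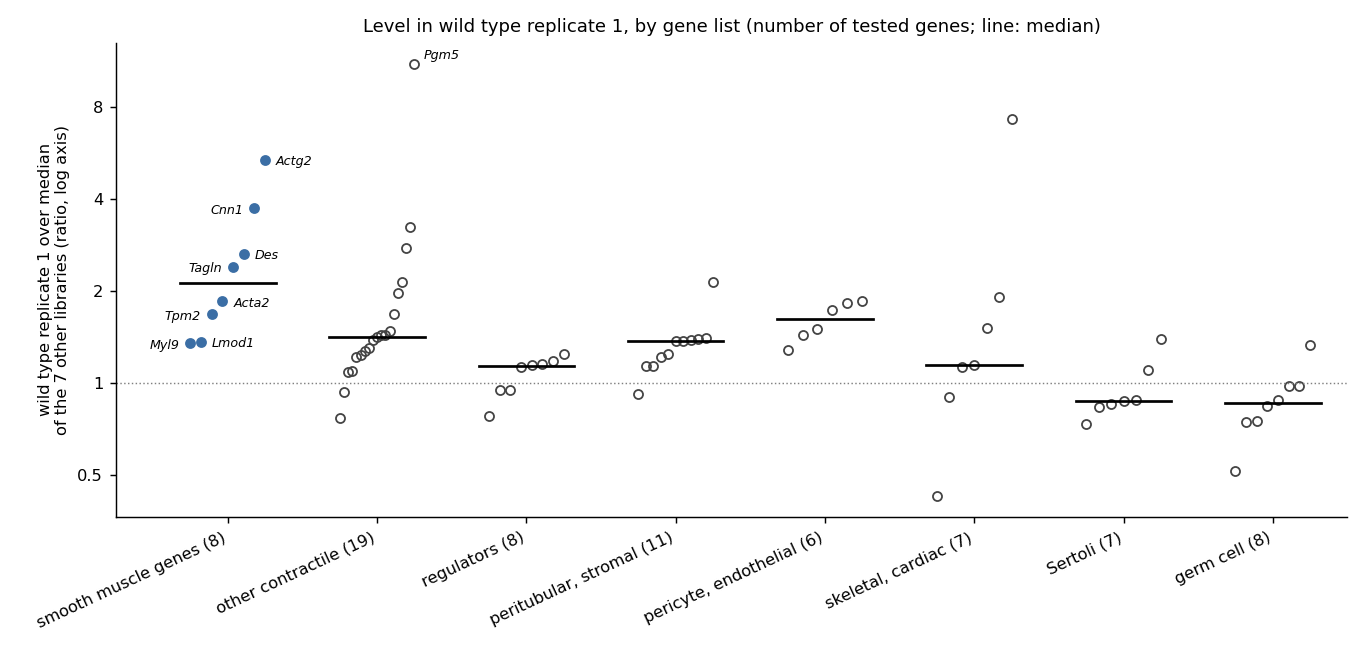
Level in wild type replicate 1 divided by the median of the 7 other libraries, on a log axis, for the tested genes of 8 lists, with the median of each list as a line. The smooth muscle genes have a median of 2.12 and reach 5.36 (*Actg2*), and the Sertoli and germ cell lists have medians of 0.877 and 0.859.

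Transcription of these genes is known to depend on serum response factor, which binds the CArG box, and on its coactivator myocardin. Of 12 regulators of smooth muscle transcription, 8 were tested, and 3 were highest in wild type replicate 1, against 15.5% of all genes tested. The 8 had a median of 1.14 times the others. *Srf* itself was at 138 CPM there and at 105.9 to 131 CPM elsewhere. *Smad3*, a mediator of TGF-beta signals, was at 156 CPM, within the range of 117 to 222 CPM. *Myocd*, listed under 2 transcripts, had too few counts to be tested (31 in all libraries together), and these are not read here as its expression. None of the 8 regulators had an unadjusted p under 0.05 between the genotypes (0 of 8, against 1.84% of all genes, edgeR).

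Most of the tested genes of the tubule wall and of the cells around it were highest in the same library. Of 16 peritubular and stromal genes, 11 were tested, and 9 were highest in wild type replicate 1, against 15.5% of all genes tested. The 11 had a median of 1.37 times the others. *Lama2* and *Col4a2*, which encode basement membrane proteins, were at 688 CPM against 386 to 564 CPM and at 659 CPM against 401.5 to 584 CPM. *Ednra*, the endothelin receptor through which myoid cells are made to contract, was at 92.5 CPM against 59.1 to 84.2 CPM. None of the 11 had an unadjusted p under 0.05 between the genotypes (0 of 11, against 1.84% of all genes, edgeR).

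Markers of other cell types were examined in the same library. Of 14 genes of the epididymal epithelium, 3 passed the low-count filter. None of these 3 was highest in wild type replicate 1, against 15.5% of all genes tested. The list held 449.5 CPM in that library and 183.5 to 251 CPM in the others. One of its genes, *Wfdc10*, was at 179.6 to 248 CPM in all libraries. Without *Wfdc10*, left out after its values were seen, the sum of the remaining 13 genes was 254 CPM there and 3.404 to 18.3 CPM in the others. *Spink8*, *Crisp1* and *Ces5a* had 118, 84.4 and 46.5 CPM in wild type replicate 1. The next highest library in these 3 genes was *Morc2b*-/- replicate 2, with 6.06, 5.73 and 1.62 CPM. *Lcn9*, *Rnase10* and *Crisp4*, also markers of the epididymis, had 0 counts in every library, and *Rnase10* and *Crisp4* are each listed under 2 transcripts.

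Of 8 genes of mesothelium and simple epithelium, 6 were tested, and 5 of these were highest in wild type replicate 1, against 15.5% of all genes tested. The summed level of the 8 was 47.2 CPM there and 9.897 to 17.8 CPM in the other libraries. *Krt8*, a keratin of simple epithelia, was at 11.3 CPM against 0.0943 to 0.774 CPM. The summed level of 12 pericyte and endothelial genes was 306 CPM, against 169 to 261 CPM, and 4 of the 6 tested were highest there. *Pecam1*, *Tek* and *Emcn*, each listed under more than 1 transcript, had 0 counts in all libraries. Of 14 skeletal and cardiac muscle genes, 7 were tested and 3 were highest there, and their sum of 18.1 CPM was within the range of 13.04 to 19.6 CPM. *Myh8*, a perinatal myosin heavy chain, had an unadjusted p of 0.0224 between the genotypes (log2 fold change 0.74, adjusted p = 0.9998, edgeR), 1 of 7 against 1.84% of all genes. Without wild type replicate 1 its log2 fold change was 0.59 (standard error 0.27). The sum of the 6 spermatid genes was 146 CPM in that library and 295 CPM in *Morc2b*-/- replicate 3, against 1.85 to 32.8 CPM elsewhere. The part of these other cell types in the smooth muscle levels of wild type replicate 1 was not tested.

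**Figure D4:**
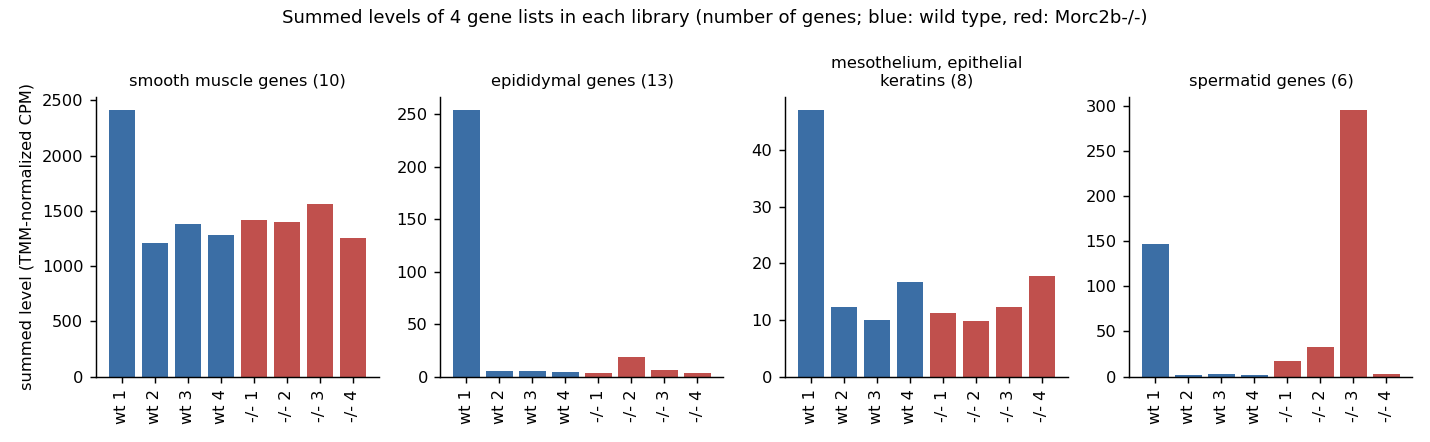
Summed level, in TMM-normalized CPM, of the 10 smooth muscle genes, of 13 epididymal genes (without *Wfdc10*), of 8 mesothelial and epithelial genes and of 6 spermatid genes in each library, with wild type in blue and *Morc2b*-/- in red. Wild type replicate 1 is the highest in the first 3 panels (2413, 254 and 47.2 CPM), and *Morc2b*-/- replicate 3 is the highest in the spermatid panel (295 CPM).

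Few genes of the Sertoli, Leydig and immune lists were highest in wild type replicate 1. Among all 13507 genes tested, 15.5% were highest there and 1857 genes were lowest. Of 7 tested Sertoli genes 1 was highest in wild type replicate 1 and 3 were lowest there, with a median of 0.877 times the others. The 5 tested Leydig genes spread widely over all libraries, their list summing to 119 to 650.3 CPM, and 1 was highest in wild type replicate 1, with a median of 1.36 times the others. None of 4 macrophage genes was highest there, with a median of 1.17 times, and none of 8 germ cell genes. The 2 tested adipose genes were not highest there either, at a median of 1.40 times, and their list summed to 1.09 CPM, within the range of 0.786 to 1.89 CPM.

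Finally, the genes whose profile over the 8 libraries was most like that of the smooth muscle genes were listed. The measure was Pearson's r between a gene's log2 CPM and the mean centred log2 CPM of the 8 genes, over 8833 other tested genes with a mean of at least 5 CPM. It is given as a description, since 1 library sets most of the profile. *Matn2*, which encodes the matrix protein matrilin-2, came first with r = 0.991, at 73.1 CPM in wild type replicate 1 against 39.2 to 47.5 CPM. It was followed by *Col4a6*, a basement membrane collagen chain (0.986), *Pate6* (0.986), *Mylk* (0.981), *Pgm5* (0.977), *Ckb* (0.976), *Psmb3* (0.973), *Olfml3* (0.971), *Gata2* (0.969) and *Ptn* (0.969). Over the 7 libraries without wild type replicate 1, *Matn2* kept an r of 0.974 and *Mylk* had 0.896, whereas *Pgm5* had 0.491. Among the 28 pairs of smooth muscle genes, the median r was 0.812 over 8 libraries and 0.675 over 7, where pairs ranged from -0.496 to 0.951.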

How the data were processed

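RNA was extracted from testes with TRIzol, and stranded mRNA libraries were sequenced for 75 cycles. The authors aligned the trimmed reads to mm9 with Tophat. The deposited values are raw counts, 1 file a sample, of reads on each RefSeq transcript, neither pooled nor normalized. The counting program is not given in the sources used here. The deposited tally lines put 26.8% to 28.8% of uniquely aligned reads in the ambiguous class, and those reads and the reads in no feature (20.7% to 26.5%) are in no count. The paper's FPKM and Cuffdiff comparison was not used here.

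Of 35819 transcripts, 35522 were matched to a symbol by accession. The 297 others (0.484% of counts) stayed separate units. Counts were summed per symbol and compared with edgeR 4.0.16 in R 4.3.3 (TMM, filterByExpr, glmQLFit, glmQLFTest, genotype only), with Benjamini-Hochberg adjustment over 13507 genes. Standard errors and 95% intervals were derived from its F statistic. Log2 CPM values had a prior count of 2. The fit was tested on simulated data. Counts differed by more than sampling noise between any pair of samples (chi-square per degree of freedom 6.86 or more). The smooth muscle genes and all lists were chosen with earlier results of these data known. Besides the 10 genes, the text names from each list up to 4 genes with the highest mean CPM and up to 4 with an unadjusted p under 0.05, *Morc2b*, and the 10 genes most like the group. One gene that this rule selects is not reported here. *Spink8*, *Crisp1*, *Ces5a*, *Myocd*, *Pkmyt1*, *Kitl* and list members at or near 0 were named after their values were seen. Alternatives were RLE, DESeq2 1.42.0, limma-voom (limma 3.58.1), other filters, a replicate block, transcripts as units, and left-out samples. Gene coordinates are from GENCODE on NCBIM37, and promoter sequences from RefSeq. The precision given by depth is that of counting error only. Figures were drawn with matplotlib 3.10.9.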

Additional observations from a re-analysis of the deposited data

Results flagged for a closer look

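A library was picked out where its gap to the nearest of the 4 of its genotype, as a share of the range of the group, was over Dixon's 95% critical value for 4 samples. Chance gives this in about 1 in 20 groups. Among all genes tested it occurred in 6.37% of wild type and 6.53% of *Morc2b*-/- groups, and with wild type replicate 1 as the high library in 1.82%. Of the 8 smooth muscle genes, 5 had wild type replicate 1 as such a library, with a gap of 0.962 of the range for *Actg2*, 0.916 for *Acta2*, 0.909 for *Cnn1*, 0.891 for *Tagln* and 0.852 for *Des*.

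The same library stood apart in *Pgm5* (0.971), in the skeletal muscle gene *Tnnc2* (0.835), in *Krt8* (0.986), *Krt18* (0.97) and *Msln* (0.864), and in the spermatid genes *Tnp1* (0.989), *Tnp2* (0.996), *Prm1* (0.989) and *Prm2* (0.99). *Morc2b*-/- replicate 3 stood apart in *Tnp1* (0.886), *Tnp2* (0.911), *Prm1* (0.877) and *Prm2* (0.903), but in none of the 8 smooth muscle genes. Other single libraries were wild type replicate 3 in *Atp2a1* (0.842), *Morc2b*-/- replicate 1 in the pericyte gene *Rgs5* (0.834) and in *Adgre1* (0.932), and *Morc2b*-/- replicate 4 in *Lrrn4* (0.863).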

How the results depend on the processing

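With DESeq2, 1 gene (*Pkmyt1*, no smooth muscle gene, named after its value was seen) had an adjusted p under 0.05, against 0 with edgeR and under each other setting tried. Without wild type replicate 1, log2 fold changes turned from below to above 0: *Acta2* 0.14, *Actg2* 0.10, *Tagln* 0.074, *Cnn1* 0.081, *Des* 0.13 and *Myl9* 0.10. Leaving out wild type replicate 1 and *Morc2b*-/- replicate 4 gave a median of 0.15, 2 genes (*Acta2* and *Lmod1*) with an unadjusted p under 0.05, against 3.28% of all genes, and *Acta2* 0.19, *Actg2* 0.15, *Tagln* 0.10, *Cnn1* 0.13, *Des* 0.19 and *Myl9* 0.15. Leaving out wild type replicate 1 and *Morc2b*-/- replicate 2, chosen after seeing the data, gave a median of 0.11, *Acta2* 0.13, *Actg2* 0.11, *Tagln* 0.063, *Cnn1* 0.058, *Des* 0.19, *Myl9* 0.13 and *Tpm2* 0.0018. Leaving out 1 sample at a time, the median ranged from -0.49 to 0.10, *Acta2* from -0.26 to 0.14, *Actg2* from -1.23 to 0.10, *Tagln* from -0.54 to 0.074, *Cnn1* from -0.81 to 0.081, *Des* from -0.54 to 0.13, *Tpm2* from -0.55 to -0.13, *Lmod1* from -0.053 to 0.17 and *Myl9* from -0.10 to 0.10, and the last 2 changed sign without other samples too: *Lmod1* -0.053, -0.027 and -0.0044 without wild type replicates 2, 3 and 4 and -0.0015 and -0.035 without *Morc2b*-/- replicates 1 and 2, *Myl9* 0.0044 and 0.031 without *Morc2b*-/- replicates 2 and 4. The cause was not tested.

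In a fit blocked by replicate number the median was -0.24, and 0 genes passed the adjusted threshold, as without the block. At an unadjusted p under 0.05 there were 572 genes in all, against 249, and the call of no smooth muscle gene changed. Deviations of same-numbered samples correlated at -0.322 to 0.453, so the numbers were not taken to pair the samples, and 4 of the 8 samples correlated best with their own number. RLE, limma-voom, the filters and transcripts as units changed no direction or call of the 8 genes, but sizes moved by over 1.5 times: *Actg2* was -0.58, *Cnn1* -0.41, *Acta2* -0.10 and *Myl9* -0.014 with limma-voom, and *Lmod1* was 0.012 where at least 10 counts were required in every sample. With the block, *Actg2* was -0.50, *Cnn1* -0.36, *Tagln* -0.25, *Des* -0.22, *Acta2* -0.093, *Myl9* -0.011 and *Lmod1* 0.032. DESeq2 changed no direction and gave no p for *Actg2*. *Tpm2*, listed under 3 transcripts, had the fewest counts of the 8 genes and the largest coefficient of variation besides wild type replicate 1. *Myh11* and *Smtn* could not be measured.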
